A study of Rattus norvegicus with 12 samples.

Results

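A set of 324 low-count circular RNAs (circRNAs) was missing from all 3 rat PVN libraries of hepatectomy without needling. The PVN is the hypothalamic nucleus whose corticotrophin-releasing neurons start the stress hormone axis. These circRNAs were present in most normal control libraries and in most libraries of hepatectomy with electroacupuncture. They were taken from the 21914 circRNAs of the deposited table, of which they make up 1.48%. A member had a raw count of 0 in all 3 libraries of hepatectomy without needling (HT). It had a count above 0 in 2 or more of the 3 normal control (NC) libraries. The same held for 2 or more of the 3 libraries of hepatectomy with electroacupuncture (HT+EA). A member also had no count of 20 or more in any of the 12 libraries. The members were thus chosen by their raw counts in NC, HT and HT+EA, so the absence in HT and the presence in NC and HT+EA are a description and carry no test. The 3 libraries of hepatectomy with sham electroacupuncture (HT+SEA) were left free, apart from the limit on the highest count. Of 326 circRNAs that met these conditions, 2 are not analysed here.

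All rats were young male Sprague–Dawley animals that were habituated to a restraint device, and NC and HT rats were restrained for the same time as the needled rats. HT, HT+EA and HT+SEA rats had a part of the left liver lobe removed under isoflurane. HT+EA rats had needles on one side at the acupoints Zusanli and Sanyinjiao, with current applied on the day before and directly after the operation, and HT+SEA rats had the same needles without current. NC rats had neither operation nor needles. The labels name the tissue only as brain with the prefix PVN, and the table holds no host gene, so tissue markers were not checked here, and the labels do not tie a library to an animal. By the study's methods 12 rats were divided over the 4 groups, and brain samples came from different animals of the same batch, collected at the same time. Library totals lay between 134903 counts in HT replicate 3 and 360524 in HT+EA replicate 2, and the 3 HT libraries together held 566182 counts against 715764 in NC, 791430 in HT+EA and 628286 in HT+SEA.

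CircRNAs are made when the end of an exon is spliced back to the start of an exon upstream of it, which closes the RNA into a ring without free ends. Many are abundant in neurons, outlast the linear transcripts of the same genes, and some bind microRNAs (miRNAs), short RNAs that pair with their targets mainly through the seed near their 5′ end. They are counted by reads across the back-splice junction, which are a small share of a library, so most circRNAs have low counts. In the deposited table no value was 1, so a value was either 0 or at least 2, and a circRNA is called listed in a library where its value was at least 2. A value of 0 therefore includes circRNAs with fewer than 2 reads or with no call in that library.

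The table gives no sequence, coordinates or host gene for a member, so none can be printed or placed in the genome. Sequences can be shown for the miRNAs that the study's own list pairs with members by target prediction. That list holds 44 node circRNAs that the study chose on these same libraries, and 5 of them were members: novel_circ_0010173, novel_circ_0011413, novel_circ_0028142, novel_circ_0030598 and novel_circ_0035132. It pairs them with 9 miRNAs, of which 8 had a mature sequence in RefSeq (assembly GRCr8). They are given 5′ to 3′ with the seed, bases 2 to 8, in capitals, because these are the predicted partners through which the study placed these members in its network.
rno-miR-29a-3p: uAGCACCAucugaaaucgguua
rno-miR-29b-3p: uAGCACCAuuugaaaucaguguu
rno-miR-455-3p: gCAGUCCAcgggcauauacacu
rno-miR-338-3p: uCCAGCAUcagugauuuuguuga
rno-miR-326-3p: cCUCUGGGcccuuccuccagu
rno-miR-204-3p: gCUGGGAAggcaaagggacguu
rno-miR-204-5p: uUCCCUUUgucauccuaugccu
rno-miR-31a-5p: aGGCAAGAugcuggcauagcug

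The 8 sequences have 7 distinct seeds, since rno-miR-29a-3p and rno-miR-29b-3p share theirs. The list pairs novel_circ_0010173 with rno-miR-29a-3p, rno-miR-29b-3p and rno-miR-455-3p, and novel_circ_0030598 with rno-miR-204-3p, rno-miR-204-5p and rno-miR-455-3p. It pairs novel_circ_0035132 with rno-miR-204-5p and rno-miR-31a-5p, novel_circ_0011413 with rno-miR-338-3p and a miRNA without a RefSeq entry, and novel_circ_0028142 with rno-miR-326-3p. Without the members' sequences, no seed match was looked for here.

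The members were rare circRNAs. Summed over the 12 libraries, a member had 8 to 67 reads with a median of 22. Its highest count in any library was 2 to 17, with a median of 6, and 38 members (11.7%) reached 10 in some library. Of the 1899 values above 0, 48.2% were 2 or 3, the 2 lowest values the table can hold, and 42 values (2.21%) were 10 or more. The median value above 0 was 4.

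The members' listing outside HT was also patchy. The largest class, 183 members (56.5%), was listed in exactly 2 NC and exactly 2 HT+EA libraries, which is the least the rule allows. Another 50 were listed in 2 NC and 3 HT+EA libraries, 51 in 3 NC and 2 HT+EA libraries, and 40 (12.3%) in all 6. Only 9 members were listed in all 9 libraries outside HT. Within 1 group, a count of 10 or more stood beside a 0 for 9 members in NC, 11 in HT+EA and 2 in HT+SEA. A member could therefore be listed in one library and missing in another of the same treatment.

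Within each group outside HT, though not across groups, the number of members listed followed the rank order of depth. NC replicates 1, 2 and 3 listed 212, 260 and 267 members. HT+EA replicates 1, 2 and 3 listed 221, 284 and 233, and HT+SEA replicates 1, 2 and 3 listed 181, 111 and 130. Within each of the 3 groups, the order of the libraries by members listed was their order by total count. This is a rank order of 3 libraries, and close totals could go with unlike numbers. NC replicates 1 and 2 had totals of 225551 and 230559 but listed 212 and 260 members. At equal depth, described further on, 147.4 and 175.4 were expected in them. Averaged over 3 libraries (± SD), 246 ± 29.9 members were listed in NC, 246 ± 33.5 in HT+EA and 141 ± 36.2 in HT+SEA. Every HT+SEA library listed fewer members than every NC and HT+EA library. With every library thinned to 134903 reads, as described further on, the expected numbers were 147.4 to 175.4 in NC, 150.2 to 163.9 in HT+EA and 95.04 to 114.9 in HT+SEA, so the gap remained at equal depth. The rule favours this order, because it required listing in NC and HT+EA and not in HT+SEA.

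**Figure D1:**
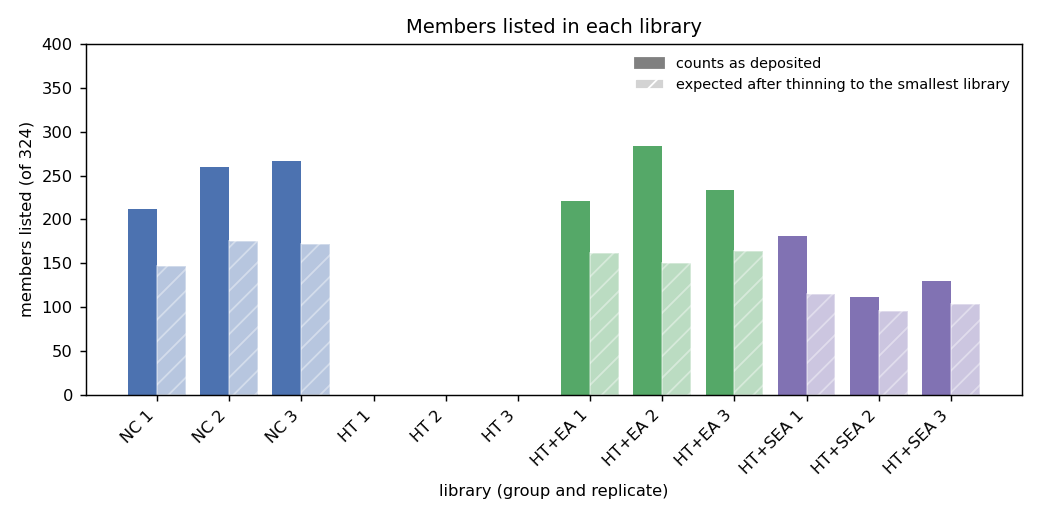
The y axis gives the number of the 324 members listed in each of the 12 libraries on the x axis, coloured by group. Solid bars are the counts as deposited and hatched bars the number expected when every library is thinned to 134903 reads. The HT bars are 0 by the rule, and thinning brings HT+EA replicate 2 from 284 to 150.2 members, below the other 2 HT+EA libraries.

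In CPM (counts per 1000000 counts of the library), the members together took 3720, 4437 and 4390 in the NC libraries, 4094, 3892 and 3997 in the HT+EA libraries and 2907, 2411 and 2739 in the HT+SEA libraries. This scale divides by the total count, but it does not restore reads that were too few to be listed. An effect of depth on these sums can therefore remain, and its size was not tested. The group means over 3 libraries (± SD) were 4182 ± 401 in NC, 3994 ± 101 in HT+EA and 2686 ± 252 in HT+SEA. The HT+SEA libraries lay below all others, and NC and HT+EA overlapped. These are shares of 0.241% to 0.444% of a library. In tissue RNA, fewer cells of a type and less RNA per cell cannot be told apart. For single members the order was mixed: the mean CPM was higher in HT+EA than in NC for 144 members and lower for 180. In HT+SEA it was below both for 205 members and above both for 51. The rule favours lower HT+SEA values here too, for single members and for the sums, because it required listing in NC and HT+EA only.

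The state of the members in HT+SEA was the reading that the rule did not fix. It describes how often circRNAs at 0 in HT and listed in HT+EA were also listed with needles alone. It cannot show whether they were present, because a 0 can stand for fewer than 2 reads or for no call. The rule also favours less listing in HT+SEA, since it required listing in NC and HT+EA only. Of the 324 members, 67 (20.7%) were at 0 in all 3 HT+SEA libraries, 129 (39.8%) were listed in 1, 91 (28.1%) in 2 and 37 (11.4%) in all 3. So 257 members (79.3%) were listed in at least 1 HT+SEA library and 128 (39.5%) in 2 or more, the number of libraries that the rule asked of NC and HT+EA. Of the members listed in a single HT+SEA library, 72 were in replicate 1, 26 in replicate 2 and 31 in replicate 3. Replicate 1 was the deepest HT+SEA library, with 258005 counts against 177533 and 192748. Most members missing in HT were thus listed with sham needling in at least 1 library, and 39.5% in 2 or more. Other choices of the group left free gave shares of this kind. With HT at 0 and HT+EA left free, 50.6% of 253 circRNAs were listed in 2 or more HT+EA libraries. With NC left free, 43.8% of 292 were listed in 2 or more NC libraries. At equal depth, described further on, these shares were 44.4% and 42.0%, beside 43.3% with HT+SEA left free. The members' share at 0 in all 3 HT+SEA libraries was 20.7%. It was 4.77% over the 5362 circRNAs described next, which were chosen without regard to HT. The rest of these had higher median counts in NC and HT+EA, as given there, and the part of abundance was not tested.

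To see how the HT+SEA state varied with the HT state, the members were set beside all 5362 circRNAs that met the same conditions on NC, HT+EA and highest count, whatever their value in HT. Of these, the members are the 6.04% with 0 HT libraries listing them. The share listed in 2 or more HT+SEA libraries was 39.5% for the members, 63.2% of the 1013 listed in 1 HT library, 79.4% of the 1770 listed in 2 and 92.8% of the 2255 listed in all 3. The share at 0 in every HT+SEA library fell in step, from 20.7% to 9.28%, 4.41% and 0.754%. Abundance moved with this order. The median count summed over the 6 NC and HT+EA libraries was 18, 22, 29 and 41 from the members upward, and its part in the trend was not tested. Across the 4 classes both shares thus ran in 1 direction, with the members at the end.

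**Figure D2:**
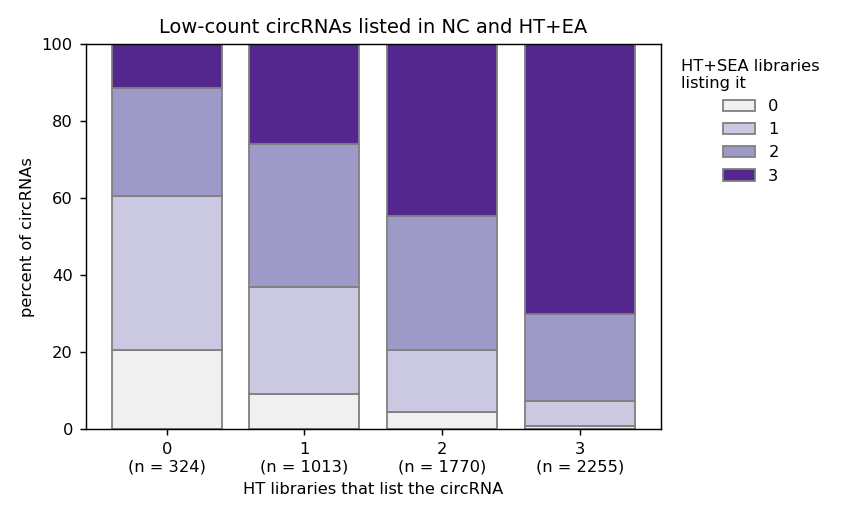
Each bar holds the low-count circRNAs listed in 2 or more NC and 2 or more HT+EA libraries, split on the x axis by the number of HT libraries that list them, with the number of circRNAs below. The y axis gives the percent of circRNAs, and shades give how many HT+SEA libraries list them. The members are the bar at 0 and have the largest share at 0 in HT+SEA, 20.7%.

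With HT and HT+SEA exchanged, 256 circRNAs were at 0 in all HT+SEA libraries, against the 324 at 0 in all HT libraries. The circRNAs of each set were listed in 2 or more libraries of NC and of HT+EA, and 67 were in both sets. These are 20.7% of the members and 26.2% of the reverse set. Over all 5362 low-count circRNAs listed in NC and HT+EA, 4.77% were at 0 in all HT+SEA libraries and 6.04% at 0 in all HT libraries. Abundance differed between the members and the rest of the 5362. The median count summed over NC and HT+EA was 18 for the members and 22, 29 and 41 for those listed in 1, 2 and 3 HT libraries. Its part in the overlap was not tested. In the reverse set 95 (37.1%) were listed in 2 or more HT libraries, against 128 (39.5%) of the members in 2 or more HT+SEA libraries. The sets were of unequal size, as were the group totals of 566182 counts in HT and 628286 in HT+SEA. Thinned to equal depth, the expected numbers were 182.1 and 167.6.

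The number of members expected at equal depth was found by thinning every library to the 134903 counts of the smallest one, taking thinned values under 2 as 0 and applying the rule again. It was computed exactly, as an expectation over all random draws. At that depth 182.1 circRNAs were expected to meet the rule, against 324 as deposited. Of these, 88.9 were members at full depth, so 27.4% of the members were expected to meet the rule again. The other 93.2 were circRNAs that do not meet it at full depth. Of the 182.1, 36.3 were expected at 0 in every HT+SEA library, 67.0 with 1, 54.1 with 2 and 24.7 with all 3 listing them, so that the share in 2 or more was 43.3%. The HT+SEA shares of this expected set were thus close to those of the members at full depth, while its size was not. Both sets differ in part in their circRNAs, so this does not follow the members themselves.

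The rule was then applied with the roles of the 4 groups exchanged, in all 12 ways of choosing 1 group at 0 and 2 groups listed. As deposited, the 3 sets at 0 in HT held 253 to 324 circRNAs, those at 0 in HT+SEA 161 to 256, those at 0 in NC 96 to 175 and those at 0 in HT+EA 97 to 124. The members' own rule gave the largest of the 12 sets. By the largest of its 3 sets, a group ranked higher the lower its total, from HT with the fewest counts to HT+EA with the most. The smallest of the 12 sets, with 96, was at 0 in NC. At equal depth the 12 sets held 135.2 to 187.4 expected circRNAs. Those at 0 in HT were still the 3 largest, at 182.1 for the members' rule, 177.3 with NC and HT+SEA listed and 187.4 with HT+EA and HT+SEA listed. The other 9 lay between 135.2 and 167.6. At equal depth the set with HT+EA and HT+SEA listed was larger than the members' rule gave. Where all 3 other groups had to list a circRNA, 128 were at 0 in HT only, 95 in HT+SEA only, 50 in NC only and 41 in HT+EA only, which became 78.8, 72.5, 62.6 and 67.5 at equal depth.

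**Figure D3:**
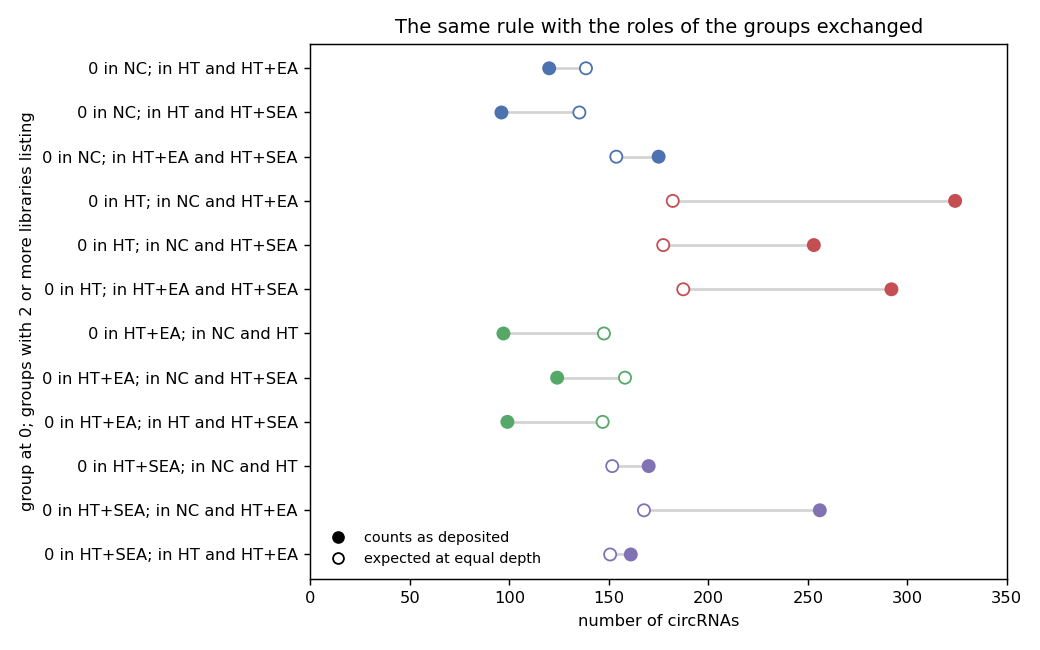
Each line on the y axis is 1 choice of the group at 0 and of the 2 groups with 2 or more libraries listing, and the x axis gives the number of circRNAs that meet it. Filled points are the counts as deposited, open points the expected numbers with every library thinned to 134903 reads, and colour marks the group at 0. The filled points span 96 to 324 and the open points 135.2 to 187.4.

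The zeros in HT can be set beside the reads that a member's share in other libraries would give there. At the share of reads that a member had in HT+SEA, the group free in the rule, the median member would have had 1.17 reads in HT replicate 1, 1.58 in HT replicate 2 and 0.859 in HT replicate 3. These medians are under 2, the lowest value the table lists. That share gave fewer than 2 reads for 217 members (67.0%) in HT replicate 1, 195 (60.2%) in HT replicate 2 and 261 (80.6%) in HT replicate 3. Over the 3 HT libraries together it gave a median of 3.60 reads, with a range of 0 to 22.5. The HT+SEA shares are themselves lowered where fewer than 2 reads are listed as 0. At the share over all 9 NC, HT+EA and HT+SEA libraries, which the rule raised by its demand on NC and HT+EA, the medians were 1.89, 2.55 and 1.39 reads in HT replicates 1, 2 and 3. Fewer than 2 reads then fell to 181 members (55.9%) in HT replicate 1, 87 (26.9%) in HT replicate 2 and 254 (78.4%) in HT replicate 3. Over the 3 HT libraries together the median was 5.83 reads, and 0 members were under 2. The 2 shares thus differed on whether most members were under 2 reads in HT replicate 2. Summed over all members the HT+SEA share gave 1537 reads in the 3 HT libraries and the share over 9 libraries gave 2082, where the rule fixed 0.

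The HT libraries differed among themselves in how many circRNAs they listed. Of the 5362 low-count circRNAs listed in NC and HT+EA, HT replicates 1, 2 and 3 listed 69.2%, 81.2% and 60.7%, and HT+SEA replicates 1, 2 and 3 listed 81.8%, 71.5% and 71.2%. At equal depth the HT libraries listed 61.8%, 66.2% and 60.7% and the HT+SEA libraries 66.0%, 64.5% and 63.1%. The 2 groups overlapped on both scales, with HT replicate 2 above all HT+SEA libraries at equal depth. HT replicate 2, with 247720 counts, also accounted for most near misses. Of the 1013 circRNAs that missed the rule by 1 HT library, 583 were listed in HT replicate 2, 251 in HT replicate 1 and 179 in HT replicate 3. The count there was 2 for 218 of them (21.5%) and its median was 4. At the other edge of the rule, the 2 highest counts inside the limit were 17, in novel_circ_0010173 and novel_circ_0020007. Only 4 circRNAs missed the rule by the limit on the highest count alone. The lowest of these were novel_circ_0017802, with a highest count of 23 in HT+SEA replicate 1, and novel_circ_0035558, with 68 in HT+EA replicate 2.

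Of the members with the most reads, novel_circ_0020007 had counts of 0, 15 and 4 in NC, 17, 6 and 0 in HT+EA and 11, 9 and 5 in HT+SEA. It was missing from 1 NC and 1 HT+EA library but from no HT+SEA library. The CPM means of the 3 libraries (± SD) were 26.8 ± 34.0 for NC, 32.0 ± 41.8 for HT+EA and 39.8 ± 12.6 for HT+SEA, so the spread within NC and within HT+EA exceeded the mean. It was the 1 member of 324 that passed the filter on low counts for testing with edgeR. Its log2 difference was 0.21 (SE 1.30) for HT+EA minus NC (edgeR, adjusted p = 0.9997), 0.54 (SE 1.29) for HT+SEA minus NC (edgeR, adjusted p = 0.9995) and -0.33 (SE 1.28) for HT+EA minus HT+SEA (edgeR, adjusted p = 0.9998). In the same order, an unadjusted p below 0.05 was reached by 0 of 1 member and by 2.48%, 2.96% and 3.89% of the 4838 circRNAs tested, and an adjusted p below 0.05 by none. The other 323 members had too few counts for this filter. Nothing is read from these tests of novel_circ_0020007, since the rule used its NC and HT+EA counts and limited its highest count.

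Without a filter, all 324 members could be tested. In HT+EA against NC 0 members reached an unadjusted p below 0.05, where 2.14% of all 21914 circRNAs did. In HT+SEA against NC 3 members (0.926%) did, against 2.41% of all, and in HT+EA against HT+SEA 6 members (1.85%) did, against 2.44% of all. Nothing about the members is read from these shares, since the rule used the NC and HT+EA counts and kept counts low, which leaves little room for a call in HT+EA against NC. The 3 lower in HT+SEA than in NC were novel_circ_0019894, novel_circ_0030598 and novel_circ_0035331. The 6 higher in HT+EA than in HT+SEA were novel_circ_0010225, novel_circ_0019259, novel_circ_0019894, novel_circ_0030598, novel_circ_0017537 and novel_circ_0038485, of which the last 2 were singled out after their values were seen. All 7 circRNAs named were at 0 in the 3 HT+SEA libraries, and the rule's demand for listing in NC and HT+EA favours these directions. When a mean count of 2 was required, 143 members were kept and 0, 2 and 2 members reached that p in the 3 comparisons, against 2.40%, 3.13% and 3.47% of all 10258 circRNAs kept. The 2 were novel_circ_0019894 and novel_circ_0030598 each time, and no member passed the adjustment (edgeR, smallest adjusted p = 0.805 without a filter and 1 with this one).

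Of the 9 members listed in every library outside HT, 6 are given by count. In novel_circ_0000493 they were 5, 6 and 2 in NC, 6, 7 and 5 in HT+EA and 7, 4 and 10 in HT+SEA, and the 3 groups overlapped. Counts of novel_circ_0006495 were 4, 5 and 8 in NC, 3, 7 and 13 in HT+EA and 8, 3 and 3 in HT+SEA. In novel_circ_0007591 they were 8, 5 and 12 in NC, 3, 8 and 3 in HT+EA and 8, 4 and 3 in HT+SEA. Among the groups that list it the electroacupuncture group had the lowest mean CPM, 16.7 ± 4.77 beside 34.5 ± 12.3 for NC and 23.0 ± 7.73 for HT+SEA (SD over 3 libraries). Counts of novel_circ_0022823 were 4, 7 and 6 in NC, 2, 7 and 4 in HT+EA and 4, 6 and 4 in HT+SEA. In novel_circ_0008467 they were 7, 2 and 2 in NC, 5, 8 and 7 in HT+EA and 3, 3 and 7 in HT+SEA. In all 5 of these members the HT+SEA counts overlapped those of NC and those of HT+EA.

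Among the node circRNAs of the study, novel_circ_0010173 is paired by target prediction with rno-miR-29a-3p, rno-miR-29b-3p and rno-miR-455-3p. It was the sixth of the members listed in all 9 libraries that are given here. Its counts were 7, 8 and 3 in NC, 3, 17 and 4 in HT+EA and 9, 2 and 3 in HT+SEA, and its count of 17 lay in the deepest library. The CPM means (± SD over 3 libraries) were 25.8 ± 12.4, 26.5 ± 18.0 and 20.6 ± 12.6, in the order NC, HT+EA, HT+SEA, and differed by less than their spread. In novel_circ_0028142, paired with rno-miR-326-3p, the counts were 5, 4 and 6 in NC, 8, 15 and 2 in HT+EA and 8, 0 and 5 in HT+SEA. Sham needling thus listed it in 2 of 3 libraries. Of the others, novel_circ_0011413, paired with rno-miR-338-3p, had counts of 6, 10 and 2 (NC), 6, 0 and 9 (HT+EA) and 7, 0 and 0 (HT+SEA). In novel_circ_0035132, the counts were 4, 7 and 7 in NC, 0, 10 and 6 in HT+EA and 7, 0 and 0 in HT+SEA. Both were listed in HT+SEA only in replicate 1, the deepest library of that group.

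The members at 0 with sham needling were fewer and had fewer reads. The highest sum over NC and HT+EA among the 67 was 30 reads, in novel_circ_0030598, the fifth node circRNA and the one paired with both arms of miR-204. NC libraries had 9, 3 and 7 counts of it and HT+EA libraries 3, 4 and 4, and it was at 0 in all HT and all HT+SEA libraries. Mean CPM (± SD over 3 libraries) was 26.6 ± 13.4 for NC and 14.5 ± 3.72 for HT+EA. It was the most read circRNA of the set that was present in every NC and every HT+EA library and in no library of HT or HT+SEA.

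Next came novel_circ_0019894 (0, 10 and 2 in NC, 4, 6 and 4 in HT+EA) and novel_circ_0010225 (2, 2 and 4 in NC, 3, 7 and 3 in HT+EA). The latter was listed in all 6 of these libraries, the former in 5. Counts of novel_circ_0002675 were 0, 5 and 4 in NC and 2, 7 and 3 in HT+EA. Those of novel_circ_0019259 were 0, 2 and 7 in NC and 7, 5 and 0 in HT+EA, and those of novel_circ_0035331 were 2, 2 and 10 in NC and 2, 5 and 0 in HT+EA. Each of these last 3 had 21 reads over 6 libraries and at least 1 library at 0 among them. The same sum of 21 was reached by novel_circ_0010225 and by novel_circ_0038485, which had 2, 4 and 3 in NC and 7, 3 and 2 in HT+EA, was listed in all 6, and fell outside the 6 named only because ties went to the lower identifier. Against a group whose libraries are all at 0 no fold is given, since a 0 can stand for fewer than 2 reads or for no call.

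**Figure D4:**
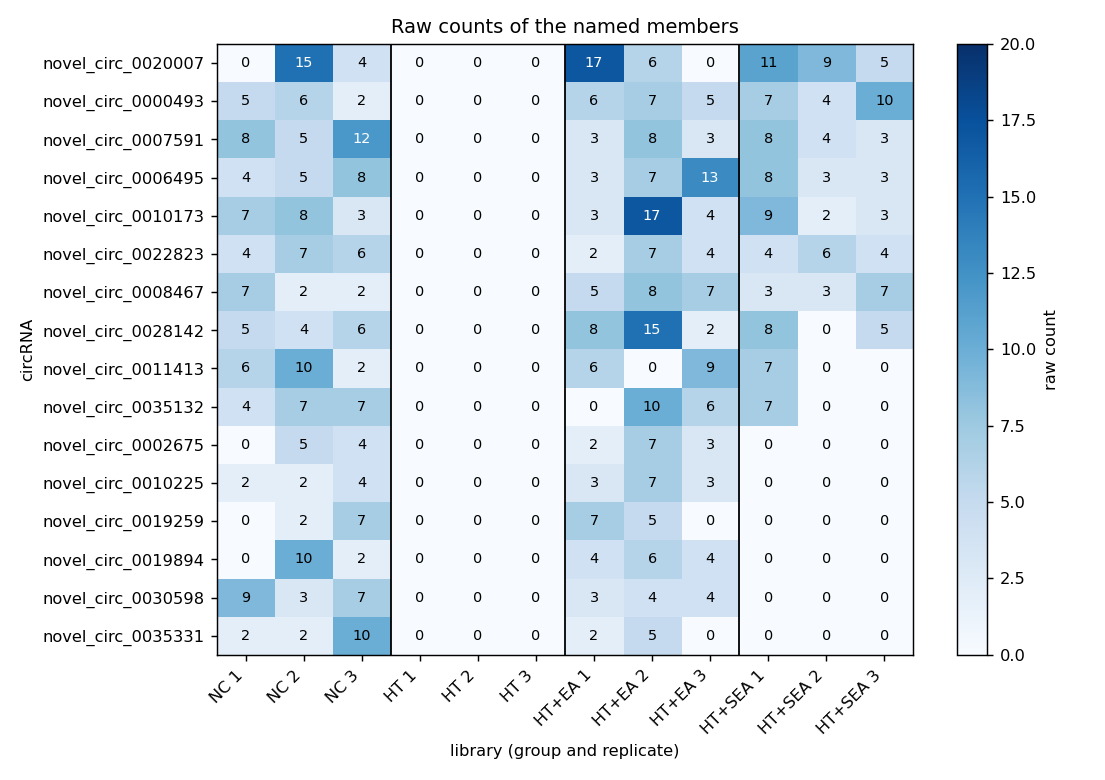
Raw counts of the 16 named members (y axis) in each of the 12 libraries (x axis), darker for higher counts, with the members in falling order of their summed HT+SEA count. The HT columns are 0 by the rule. The 7 at the top are listed in all 3 HT+SEA libraries, and the 6 at the bottom are at 0 there.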

How the data were processed

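Total RNA of 12 PVN samples, 3 per group, was made into strand-specific libraries and sequenced on Illumina HiSeq instruments. The authors filtered reads for adapters, ambiguous bases and base quality. HISAT2 and featureCounts are named for the sequencing data in general, whereas the circRNA caller and its read minimum are not given in the sources used here. Per the submitters' processing notes the builds are the human GRCh38 and hg38, but the study's methods name a rat assembly. The authors deposited raw read counts per circRNA, which were not normalised. The table's 12 columns of TPM were not used, because part of the column names could not be matched to labels.

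The members and lists were chosen with earlier results of these data known. Named members are the 6 with the highest summed count, the 6 so ranked among those listed in all 9 libraries outside HT, the 6 with the highest NC and HT+EA sum among those at 0 in HT+SEA, those tested, and the neighbours of the limit of 20, with ties going to the lower identifier. Novel_circ_0011413 and novel_circ_0035132 were added after their values were seen, as members on the node list. Totals per library are back-splice reads and limit precision. Equal-depth numbers were computed from hypergeometric probabilities (scipy 1.17.1), and checked on simulated data. CPM is the count per 1000000 counts of the library. For tests, edgeR 4.0.16 (R 4.3.3; filterByExpr, TMM, glmQLFit and glmQLFTest) was fitted to all 12 libraries with Benjamini-Hochberg adjustment over all circRNAs tested, two-sided, and was tested on simulated counts. P-values measure the spread between these samples, which may be technical. No library was a copy of another of its group: chi-square per degree of freedom was 2.71 to 4.22 over 12 pairs. Other filters, median-ratio size factors, DESeq2 1.42.0, a replicate block, other limits of the rule and leaving out each library were tried.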

Additional observations from a re-analysis of the deposited data

How the results depend on the processing

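The number of circRNAs that met the rule depended on the conditions more than their share listed in 2 or more HT+SEA libraries did. Against 324 members, the number was 214 when 5 counts were required for listing, 40 when all NC and all HT+EA libraries had to list a circRNA, and 182.1 at equal depth. A highest count under 10 gave 286, under 50 gave 325, no limit gave 328 and 3 counts for listing gave 296. Leaving out 1 library at a time gave 130 (without HT+EA replicate 2) to 907 (without HT replicate 2). By construction, leaving out an HT library loosens the rule, and leaving out an NC or HT+EA library tightens it, since 2 had still to list a circRNA. Without NC replicate 1, 2 or 3 it was 203, 155 and 148, without HT+EA replicate 1 or 3 it was 193 and 181, without HT replicate 1 or 3 it was 575 and 503, and without any HT+SEA replicate it stayed at 324. The share listed in 2 or more HT+SEA libraries was 39.5%, and 55% where all NC and HT+EA libraries had to list a circRNA. It ran from 17.3% (without HT+SEA replicate 1) to 54.0% (without HT replicate 2) when 1 library was left out. Without HT+SEA replicate 1, 2 or 3 it was 17.3%, 24.7% and 20.4%. This fall is by construction, since both remaining HT+SEA libraries then had to list a circRNA. Over the other settings it was 35.7% to 43.3%. Leaving out 1 library kept more circRNAs at 0 in HT than in HT+SEA for each NC and HT+EA library, whereas 674, 474 and 461 were at 0 in HT+SEA without its replicate 1, 2 or 3.

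With no filter all 324 members were tested. In edgeR 0, 3 and 6 passed an unadjusted p below 0.05 in HT+EA against NC, HT+SEA against NC and HT+EA against HT+SEA (0.926% and 1.85% of members in the last pair, against 2.14%, 2.41% and 2.44% of all circRNAs in the 3 contrasts). When a mean count of 2 was required (143 members), 0, 2 and 2 passed, against 2.40%, 3.13% and 3.47%. All of these were at 0 in every HT+SEA library, and none passed the adjustment (smallest adjusted p 0.805). The replicate block, DESeq2, median-ratio size factors and each left-out library gave 0 member calls, with 1 or 2 members tested. The replicate numbers did not pair the libraries, since same-numbered libraries of different groups correlated at -0.09 to 0.10 and 2 of 12 libraries correlated best with their own number, so the block (0 member calls, 96, 126 and 163 of all circRNAs in the 3 contrasts) changed no call of a member. Fits of only the 2 groups compared kept no member and gave no value.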
